A study of Mus musculus with 6 samples.

Results

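The Notch pathway and the secretory fate factors next to it were followed through 10 genes in mouse colon organoids treated with tumour necrosis factor alpha (TNF). These were the receptors Notch1, Notch2 and Notch3, the ligands Dll1, Dll4, Jag1 and Jag2, and the transcription factors Hes1, Hes6 and Atoh1. They were chosen by exact gene symbol, and all 10 were found once each among the 29940 genes of the deposited table. The organoids had been seeded as crypts from C57BL/6J large intestine in Matrigel, a gel of basement membrane proteins. The TNF group (3 samples) received the cytokine for 24 hours after 2 days of culture, and the Ctrl group (3 samples) went without it. The labels call the treatment one in combination but name no other agent. No allele or transgene is named in either group. The sources used here give neither the dose of TNF nor the age or number of mice, and do not say that samples came from separate cultures. The p-values therefore describe sample-to-sample spread, part or all of which may be technical.

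In Notch signalling, a ligand on one cell pulls on a receptor on its neighbour. The receptor is then cut by proteases, and its inner part enters the nucleus, joins the DNA-binding protein RBPJ and switches on repressor genes such as Hes1. In the intestinal epithelium, HES1 holds down Atoh1, the factor that commits a progenitor to goblet, enteroendocrine and other secretory cells. Cells that make ATOH1 also make Delta-type ligands, so that they keep their neighbours on the absorptive path.

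Levels are in FPKM, a read density corrected for transcript length and for the size of the library, so that genes of different length can be compared. The libraries held 4.18 to 4.80 gigabases of reads, as recovered from the deposited values, and 1 FPKM in a gene of 1 kilobase stood for 28.1 to 32.2 reads. Changes are differences of log2(FPKM + 1), TNF minus Ctrl, tested with limma and adjusted over the 12350 genes whose mean over the 6 samples reached 1 FPKM. On this scale a low gene's change comes out too small. A gene passed the test at an adjusted p under 0.05, and 24.0% of all tested genes did so, 12.9% higher and 11.1% lower in TNF. The 3 values of each group did not overlap in 41.4% of tested genes. The defining epithelial genes were high, with the 7 epithelial markers summing to 3376 to 3634 FPKM in TNF and 2945 to 3207 FPKM in Ctrl. Of the 7, 3 keratin genes passed as higher (Krt8, Krt18 and Krt19), 1 was lower (Cdx2) and 3 did not pass. Cdx2 is also counted among the absorptive factors below. Of the 6 leukocyte markers, Lyz2, a lysozyme gene of macrophages, was at 2.72 FPKM in TNF 3 and 4.65 FPKM in Ctrl 1, and at 15.6 to 16.0 FPKM in the other 4 samples, so named calls that end without these 2 samples are marked. The other 5 leukocyte markers did not set those samples apart. They summed to 4.07 to 5.00 FPKM in TNF and 2.68 to 3.73 FPKM in Ctrl, and Ptprc, the common leukocyte antigen, was at 0.374 to 0.382 FPKM in TNF and 0.146 to 0.198 FPKM in Ctrl. The part of leukocytes in the results was not tested.

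With TNF, Hes1 RNA fell and Atoh1 RNA rose, while none of the tested receptors and ligands passed the test. Of the 9 members tested, 1 was higher, 1 was lower and 7 did not pass. Their median log2 change was -0.05, against -0.0010 over all tested genes. A share of 22.2% of the tested members was called, close to the 24.0% of all genes, so the number of calls says nothing particular about the pathway. All values of one group lay beyond those of the other in 3 of the 9 (Hes1, Atoh1 and Notch2), beside 41.4% of all genes. The remaining member, Notch3, had a mean under 1 FPKM and was not tested. In whole-organoid RNA, fewer cells of a type and less RNA per cell cannot be told apart.

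**Figure D1:**
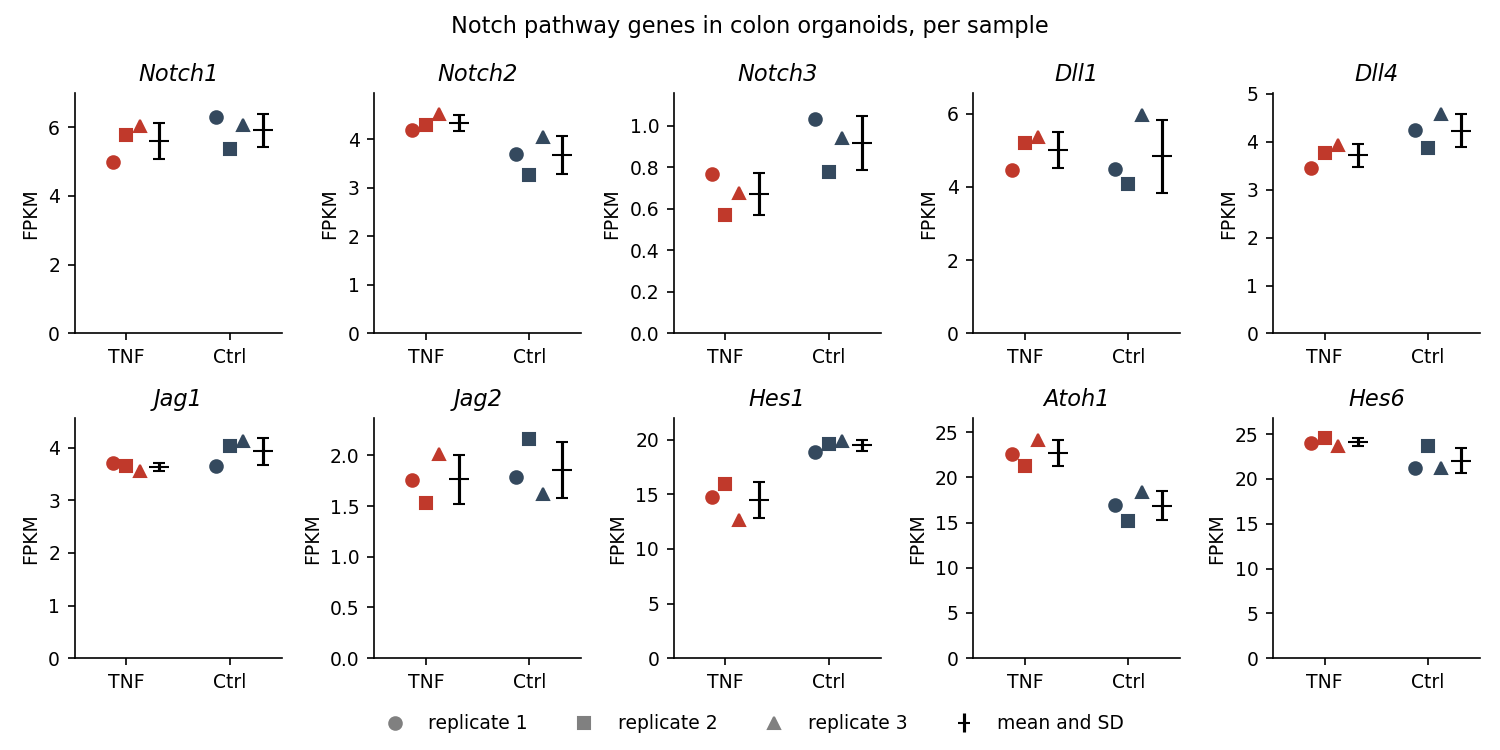
Level in FPKM of each of the 10 genes in every TNF and Ctrl sample (symbols mark the replicate number of the label), with the mean and SD of the 3 samples. Hes1 lay at 12.7 to 16.0 FPKM in TNF and 18.9 to 19.8 FPKM in Ctrl, and Atoh1 at 21.3 to 24.1 FPKM in TNF and 15.2 to 18.4 FPKM in Ctrl.

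Hes1, the repressor induced by Notch (ENSMUSG00000022528, chromosome 16, 30064384 to 30067796, plus strand, GRCm38), had 14.8, 16.0 and 12.7 FPKM in TNF 1, 2 and 3, against 18.9, 19.6 and 19.8 FPKM in Ctrl 1, 2 and 3. All TNF samples were below all Ctrl samples, with TNF 3 the lowest and the Ctrl samples close together. The mean was 14.5 ± 1.68 FPKM in TNF and 19.5 ± 0.499 FPKM in Ctrl (SD, n = 3 each), 25.6% lower with TNF. The log2 change was -0.41 (SE 0.08, 95% interval -0.59 to -0.23, limma adjusted p = 0.00764). The call held when any single sample was left out, with log2 changes between -0.48 and -0.32 and adjusted p between 0.00585 and 0.0267.

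Atoh1, the basic helix-loop-helix factor of the secretory lineage (ENSMUSG00000073043, chromosome 6, 64729125 to 64731245, plus strand, GRCm38), had 22.6, 21.3 and 24.1 FPKM in TNF 1, 2 and 3, against 17.0, 15.2 and 18.4 FPKM in Ctrl 1, 2 and 3. All TNF samples were above all Ctrl samples. The mean was 22.7 ± 1.43 FPKM in TNF and 16.9 ± 1.62 FPKM in Ctrl (SD, n = 3 each), 34.4% higher with TNF. The log2 change was 0.41 (SE 0.08, 95% interval 0.23 to 0.58, limma adjusted p = 0.00676). Any single sample could be left out without loss of the call (log2 change 0.34 to 0.47, adjusted p 0.00538 to 0.0273). Without both Ctrl 1 and TNF 3, which leaves 2 samples a group, the log2 change was 0.37 and did not pass (adjusted p = 0.0689), whereas that of Hes1 was -0.34 and passed (adjusted p = 0.0278). Among the TNF samples, TNF 3 had the least Hes1 and the most Atoh1 and TNF 2 the reverse, while Ctrl 3 had the most of both among the Ctrl samples.

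Set against each other within a sample, Atoh1 exceeded Hes1 in every TNF sample and stayed under it in every Ctrl sample. The ratio of Atoh1 to Hes1 FPKM was 1.53, 1.33 and 1.91 in TNF 1, 2 and 3, against 0.899, 0.774 and 0.928 in Ctrl 1, 2 and 3. Its mean was 1.59 ± 0.292 in TNF and 0.867 ± 0.0818 in Ctrl (SD, n = 3 each). The ratio is built from both called genes and was not tested on its own.

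Hes6, a relative of Hes1 known from mouse neural tissue to counteract it (ENSMUSG00000067071, chromosome 1, 91411483 to 91414038, minus strand), was the most abundant of the 10 genes in both groups. It had 24.0, 24.6 and 23.7 FPKM in TNF 1, 2 and 3, against 21.3, 23.7 and 21.2 FPKM in Ctrl 1, 2 and 3. TNF 3 and Ctrl 2 had nearly the same value, so the groups touched. The log2 change was 0.12 (SE 0.05, 95% interval 0.0026 to 0.24) and did not pass (limma adjusted p = 0.131). Without Ctrl 2 it passed (log2 change 0.17, adjusted p = 0.0295), which made 2 members higher.

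The start regions of the called gene Atoh1 and of Hes6, the most abundant member, are shown because HES and ATOH factors are known to bind short boxes in promoters. Windows of 300 bases, from 250 bases before to 50 after a gene's start, were taken from RefSeq on GRCm38.p6 for 9 of the 10 genes (all but Hes1), 11 windows in all. Capitals mark matches, on either strand, to the E-box CANNTG, to the N-box CACNAG and to the RBPJ core TGGGAA. An E-box and an N-box cannot share all their letters. The windows are chr6:64728875-64729174 on the plus strand for Atoh1 and chr1:91413989-91414288 on the minus strand for Hes6, the outer of 2 windows of that gene.
Atoh1: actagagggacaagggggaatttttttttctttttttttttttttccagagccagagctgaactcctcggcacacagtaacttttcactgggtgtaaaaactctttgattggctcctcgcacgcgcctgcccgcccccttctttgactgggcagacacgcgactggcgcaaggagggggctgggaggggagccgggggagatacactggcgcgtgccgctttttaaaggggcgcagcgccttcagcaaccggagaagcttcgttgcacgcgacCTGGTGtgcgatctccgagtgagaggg
Hes6: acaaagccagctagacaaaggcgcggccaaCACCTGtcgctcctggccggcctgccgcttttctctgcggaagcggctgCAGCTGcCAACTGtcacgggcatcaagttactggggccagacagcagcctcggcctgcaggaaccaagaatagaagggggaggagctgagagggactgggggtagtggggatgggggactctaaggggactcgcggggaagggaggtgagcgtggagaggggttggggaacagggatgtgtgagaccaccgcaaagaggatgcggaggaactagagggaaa
The Atoh1 window held 1 N-box match, whose first base was base 24 of the transcript, and no E-box. The printed Hes6 window held 3 E-box matches, starting at -220, -171 and -164, and no N-box. The other window of Hes6, not printed, held 1 E-box match at -150 and 2 N-box matches at -237 and 16. Among the 11 windows, 5 held an E-box, 7 an N-box and 0 the RBPJ core. Over all 32851 RefSeq windows of the same length the shares were 72.3%, 42.5% and 25.6%. A match is a string of letters and not a measured binding site.

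Of the receptors, which receive the signal, Notch1 (chromosome 2, 26457903 to 26516663, minus strand) was the most abundant. It had 5.00, 5.78 and 6.02 FPKM in TNF 1, 2 and 3, against 6.30, 5.38 and 6.07 FPKM in Ctrl 1, 2 and 3, with overlapping groups. Its log2 change was -0.07 (95% interval -0.25 to 0.12, limma adjusted p = 0.587). Notch2 (chromosome 3, 98013527 to 98150361, plus strand) had 4.20, 4.31 and 4.52 FPKM in TNF 1, 2 and 3, against 3.70, 3.27 and 4.05 FPKM in Ctrl 1, 2 and 3. All its TNF values were above all its Ctrl values, yet the log2 change of 0.20 (SE 0.07, 95% interval 0.03 to 0.37) did not pass (limma adjusted p = 0.0946). It did not pass under any of the 14 alternatives that could test it either, with adjusted p from 0.0532 to 0.343. Notch3, a receptor best known from the muscle cells of vessel walls (chromosome 17, 32120820 to 32166852, minus strand), had 0.768, 0.567 and 0.676 FPKM in TNF 1, 2 and 3, against 1.03, 0.777 and 0.938 FPKM in Ctrl 1, 2 and 3. Every TNF value was below every Ctrl value, though TNF 1 lay only just under Ctrl 2. Tested without the filter on low values, Notch3 had a log2 change of -0.20 and did not pass (limma adjusted p = 0.273). An estimated 136 to 255 reads per library stood behind it, the lowest of the 10 genes, and 1958 to 2704 behind Notch1, the highest.

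Since Notch3 and the ligands Dll4 and Jag1 are also made by vessels and connective tissue, markers of those cells were read beside them. The 6 fibroblast markers summed to 3.08 to 3.87 FPKM in TNF and 5.56 to 9.90 FPKM in Ctrl, lower in every TNF sample as Notch3 was. The 6 mural and smooth muscle markers summed to 2.85 to 3.25 FPKM in TNF and 2.10 to 6.94 FPKM in Ctrl. The 7 endothelial markers summed to 0.933 to 1.11 FPKM in TNF and 0.317 to 0.988 FPKM in Ctrl, with none at a mean of 1 FPKM and Kdr, Tek and Emcn at 0 in at least 1 sample. The 4 glial markers summed to 20.2 to 23.0 FPKM in TNF and 4.58 to 6.35 FPKM in Ctrl. The part of these cells in the levels of Notch3, Dll4, Jag1 and the other members, Hes1 and Atoh1 included, was not tested.

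The receptors together came to 10.6 ± 0.624 FPKM in TNF and 10.5 ± 0.936 FPKM in Ctrl (SD, n = 3 each), with overlapping groups. Within that sum the shares separated the groups. Notch2 made up 40.3% to 42.1% in TNF and 33.6% to 36.6% in Ctrl, Notch1 50.2% to 54.3% in TNF and 54.9% to 57.1% in Ctrl, and Notch3 5.32% to 7.70% in TNF and 8.24% to 9.35% in Ctrl. These shares add up to the whole and so move together, and they were not tested.

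**Figure D2:**
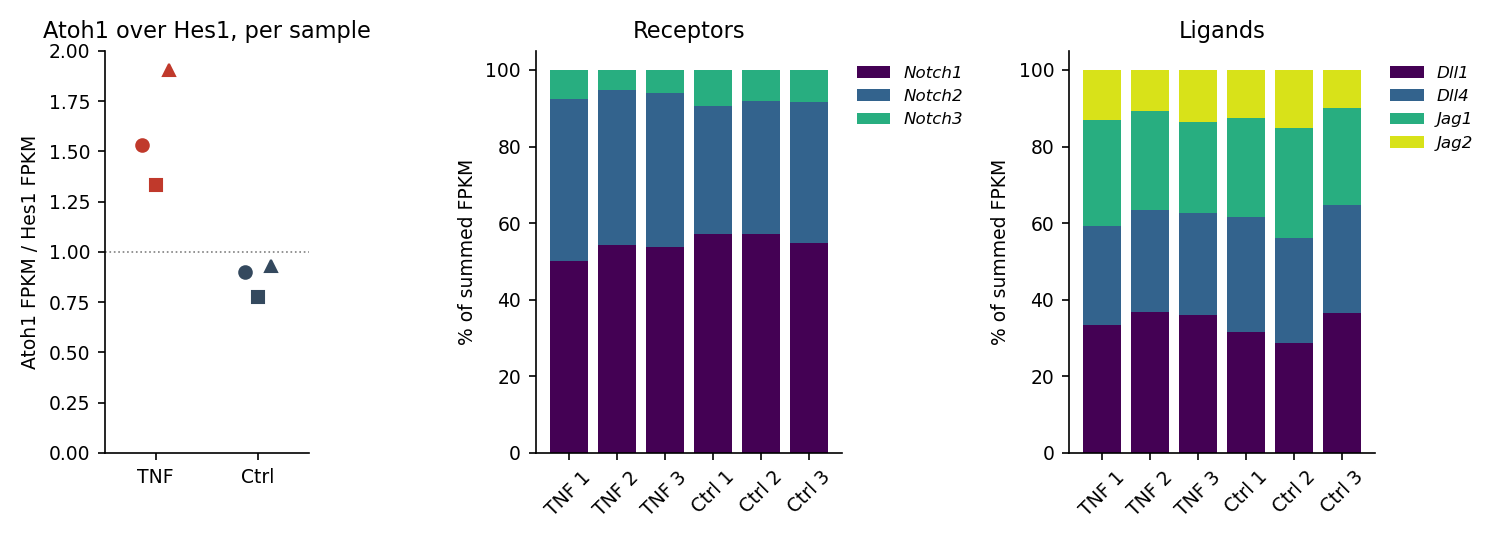
Left, the ratio of Atoh1 to Hes1 FPKM in each sample (symbols as replicate numbers, dotted line at equal levels). Middle and right, the percentage of the summed receptor FPKM and of the summed ligand FPKM held by each gene in each sample. The ratio was above 1 in the 3 TNF samples and below 1 in the 3 Ctrl samples, and the Notch2 share was 40.3% or more in TNF and 36.6% or less in Ctrl.

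None of the 4 ligand genes passed the test. Dll1, the Delta ligand made by secretory progenitors (chromosome 17, 15367354 to 15376872, minus strand), had 4.45, 5.20 and 5.36 FPKM in TNF 1, 2 and 3, against 4.49, 4.07 and 5.96 FPKM in Ctrl 1, 2 and 3. The Ctrl samples enclosed the TNF samples, and the log2 change of 0.05 (95% interval -0.23 to 0.33, limma adjusted p = 0.8) turned to -0.045 without Ctrl 2 and to -0.030 without both Ctrl 1 and TNF 3. The interval takes in changes as large as that of Notch2 in either direction. Dll4, which acts beside Dll1 in the intestine (chromosome 2, 119325784 to 119335962, plus strand), had 3.46, 3.76 and 3.93 FPKM in TNF 1, 2 and 3, against 4.25, 3.88 and 4.58 FPKM in Ctrl 1, 2 and 3 (log2 change -0.15, 95% interval -0.31 to 0.02, limma adjusted p = 0.179). TNF 3 alone reached into the Ctrl range.

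Of the Jagged ligands, Jag1 (chromosome 2, 137081456 to 137116644, minus strand) had 3.70, 3.66 and 3.55 FPKM in TNF 1, 2 and 3, against 3.64, 4.04 and 4.12 FPKM in Ctrl 1, 2 and 3 (log2 change -0.09, 95% interval -0.23 to 0.05, limma adjusted p = 0.34). Jag2 (chromosome 12, 112907819 to 112929776, minus strand) had 1.75, 1.53 and 2.01 FPKM in TNF 1, 2 and 3, against 1.79, 2.16 and 1.61 FPKM in Ctrl 1, 2 and 3. Its groups overlapped, and its log2 change of -0.05 (95% interval -0.29 to 0.20, limma adjusted p = 0.791) turned to 0.030 without Ctrl 2 and to 0.018 without TNF 2. The ligands together came to 14.1 ± 0.744 FPKM in TNF and 14.9 ± 1.22 FPKM in Ctrl (SD, n = 3 each), with overlapping groups. Dll4 held 25.9% to 26.6% of that sum in TNF and 27.4% to 29.96% in Ctrl, and the shares of Dll1, Jag1 and Jag2 overlapped between groups.

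**Figure D3:**
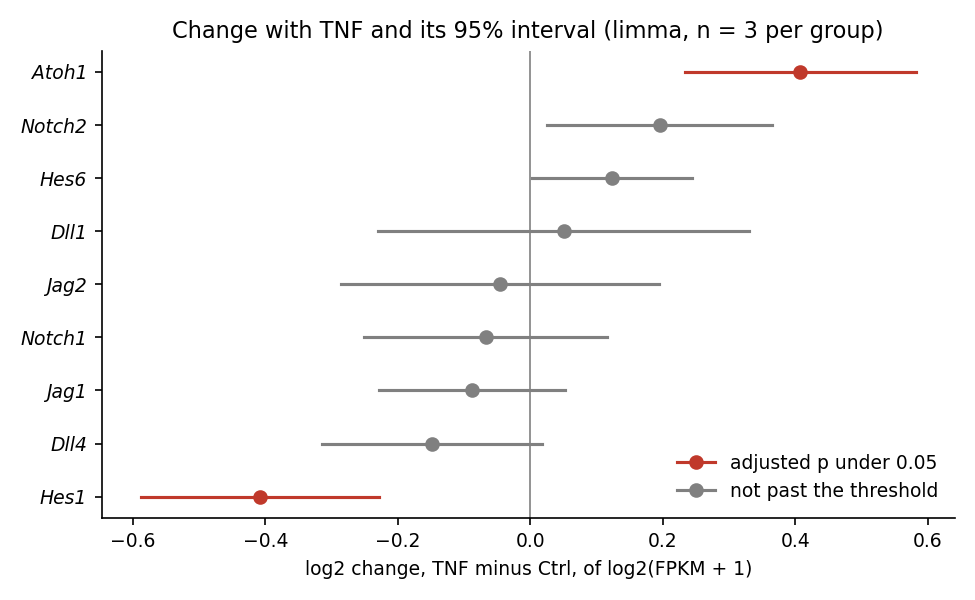
Log2 change of the 9 tested genes, TNF minus Ctrl, on log2(FPKM + 1), with 95% intervals from limma (n = 3 per group). Atoh1 (0.41) and Hes1 (-0.41) passed the test and stand at the ends of the order.

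By mean FPKM, the order of levels in TNF was Hes6, Atoh1 and Hes1, then Notch1, Dll1, Notch2, Dll4 and Jag1, then Jag2 and Notch3. In Ctrl, Hes1 stood above Atoh1, and Notch2 stood below Jag1. In TNF the values of neighbours overlapped between Hes6 and Atoh1, Notch1 and Dll1, Dll1 and Notch2, and Dll4 and Jag1. In Ctrl they overlapped from Notch1 through Dll1, Dll4 and Jag1 to Notch2. The factors were at 12.7 FPKM or more in every sample and the receptors and ligands at 6.30 FPKM or less. Exons of other genes cover 20.5% of the exonic length of Dll1, 10.6% of Notch1 and 5.02% to 6.03% of Notch2, Notch3 and Dll4, and the sources used here do not say whether counting used strand, so a part of their values can come from these neighbours. Hes1, Hes6, Atoh1, Jag1 and Jag2 had no such overlap.

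By likeness over the 6 samples, on log2(FPKM + 1) and among 7627 other genes averaging 5 FPKM or more, Hes1 was closest to Ppip5k2 (Pearson r = 0.995), Dbt (0.994) and Fam185a (0.992). Atoh1 was closest to Hsbp1 (r = 0.992), Arih2 (0.99) and Upf1 (0.989). With 6 points in 2 groups and so many genes, correlations of this size are a description only.

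In the rest of the pathway, changes were few and went both ways. Of 54 further pathway genes, 38 were tested, 4 were higher, 5 were lower and 29 did not pass, with a median log2 change of -0.05. A share of 23.7% was called, close to the 24.0% of all genes. Of the best known targets of Notch beside Hes1, Nrarp, a feedback inhibitor of the pathway, fell. It had 6.91, 5.83 and 6.07 FPKM in TNF 1, 2 and 3, against 9.0, 8.22 and 8.51 FPKM in Ctrl 1, 2 and 3 (log2 change -0.40, SE 0.07, limma adjusted p = 0.00436). Exons of Gm38287, on the other strand, cover 2051 of the 2582 exonic bases of Nrarp. Gm38287 was listed at 0.028 ± 0.028 FPKM in TNF and 0.0099 ± 0.017 FPKM in Ctrl. The groups of Nrarp did not overlap, and its call ended when Ctrl 1 and TNF 3 were both left out (adjusted p = 0.0635). Olfm4, a stem cell gene that Notch sustains in the small intestine, went the other way, with 3.42, 3.34 and 4.69 FPKM in TNF 1, 2 and 3, against 0.177, 0.205 and 0.263 FPKM in Ctrl 1, 2 and 3 (log2 change 1.98, SE 0.12, limma adjusted p = 3.43e-05), and its exons overlap Gm6999. Of the 5 stem cell markers read beside it, 2 fell, 1 rose and 2 did not pass. Lgr5, the marker of crypt base stem cells, had 34.8 ± 0.218 FPKM in TNF and 46.3 ± 2.28 FPKM in Ctrl (SD, n = 3 each; limma adjusted p = 0.000638). Smoc2 had 32.7 ± 1.55 FPKM in TNF and 46.5 ± 5.27 FPKM in Ctrl (limma adjusted p = 0.0044), a call that ended when Ctrl 1 and TNF 3 were both left out (adjusted p = 0.0531). Ascl2, a stem cell transcription factor, had 11.4 ± 0.861 FPKM in TNF and 3.8 ± 0.278 FPKM in Ctrl (limma adjusted p = 1.48e-05). The other 5 targets on the list (Hes5, Hes7, Hey1, Hey2 and Heyl) had means under 1 FPKM.

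Of the enzymes that put sugars on the receptors, 4 were tested, of which Pofut1 and Rfng fell. Pofut1, which adds the O-fucose that ligands need, had 4.05, 4.32 and 4.75 FPKM in TNF 1, 2 and 3, against 6.73, 6.91 and 6.47 FPKM in Ctrl 1, 2 and 3 (log2 change -0.52, SE 0.06, limma adjusted p = 0.000867). Rfng, one of the Fringe enzymes that extend it, had 6.22 ± 0.407 FPKM in TNF and 7.85 ± 0.34 FPKM in Ctrl (SD, n = 3 each; limma adjusted p = 0.00966). The groups of both genes did not overlap. Lfng, another Fringe enzyme, had 9.90 ± 0.61 FPKM in TNF and 9.09 ± 1.04 FPKM in Ctrl and did not pass. Mfng, the remaining one, had 0.747, 0.832 and 0.477 FPKM in TNF 1, 2 and 3, and was listed at 0, 0 and 0.059 FPKM in Ctrl 1, 2 and 3, too low to be tested.

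Of the 9 cleavage genes tested, 1 passed. Ncstn, a subunit of gamma-secretase, had 34.4 ± 0.552 FPKM in TNF and 37.7 ± 0.331 FPKM in Ctrl (SD, n = 3 each; log2 change -0.13, limma adjusted p = 0.0376). That call was lost when any 1 sample was left out (adjusted p 0.0736 to 0.113) and with the replicate number as a block (adjusted p = 0.0999), as when Ctrl 1 and TNF 3 were both left out (adjusted p = 0.235), and Ncstn exons overlap Copa. The sheddase gene Adam10 was at 46.9 ± 0.206 FPKM in TNF and 45.7 ± 0.865 FPKM in Ctrl (log2 change 0.04, limma adjusted p = 0.518).

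Of 12 trafficking and ubiquitin genes tested, 3 rose and 9 did not pass. Neurl3, a ubiquitin ligase of the Neuralized family, had 82.3, 89.4 and 86.5 FPKM in TNF 1, 2 and 3, against 51.9, 52.3 and 54.6 FPKM in Ctrl 1, 2 and 3 (log2 change 0.69, SE 0.05, limma adjusted p = 4.8e-05). Every TNF value was far above every Ctrl value. Dtx3l, of the Deltex family and known from the interferon response as the partner of Parp9, had 9.40 ± 0.46 FPKM in TNF and 6.88 ± 0.514 FPKM in Ctrl (SD, n = 3 each; limma adjusted p = 0.00307). Its exons overlap Parp9, which rose as well, with 8.96 ± 0.35 FPKM in TNF and 6.35 ± 0.18 FPKM in Ctrl (limma adjusted p = 0.000628). Dtx3 had 2.28 ± 0.478 FPKM in TNF and 1.22 ± 0.21 FPKM in Ctrl (limma adjusted p = 0.017), a call lost without TNF 2 (adjusted p = 0.0563), without TNF 3 (adjusted p = 0.0587) and without both TNF 3 and Ctrl 1 (adjusted p = 0.103).

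Of 11 genes of the nuclear complex tested, 1 passed. The coactivator gene Maml3 had 1.71 ± 0.0639 FPKM in TNF and 2.45 ± 0.117 FPKM in Ctrl (SD, n = 3 each; log2 change -0.35, limma adjusted p = 0.00926), and the call ended when Ctrl 1 and TNF 3 were both left out (adjusted p = 0.0608). Rbpj itself was at 4.69 ± 0.122 FPKM in TNF and 4.57 ± 0.031 FPKM in Ctrl (log2 change 0.03, limma adjusted p = 0.708). The receptors and ligands outside the 10 (Notch4, Dll3, Dlk1, Dlk2 and Dner) all had means under 1 FPKM.

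**Figure D4:**
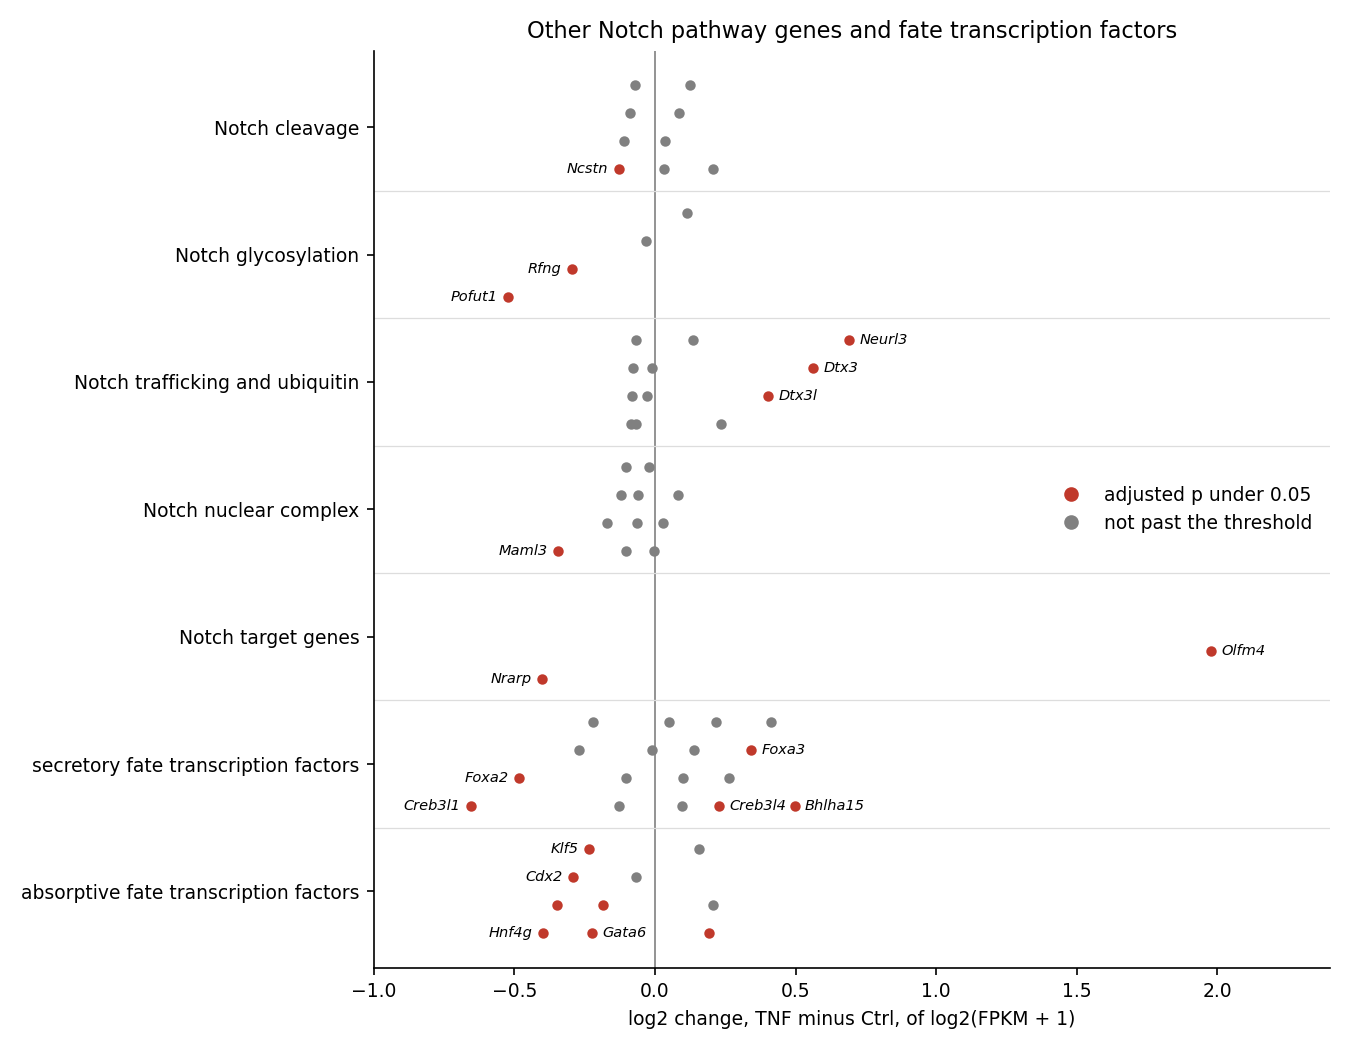
Log2 change, TNF minus Ctrl, on log2(FPKM + 1) of each tested gene of 5 Notch pathway lists and 2 lists of fate transcription factors, with genes past the test in red and the genes named in the text by rule labelled. Most Notch pathway genes lay near 0, Olfm4 stood at 1.98, and 6 of the 10 factors listed as absorptive were called lower.

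Of the transcription factors around the fate decision, 27 were tested. There, 4 were higher, 8 were lower and 15 did not pass, so that 44.4% were called beside 24.0% of all genes. The lists were chosen with earlier results of these data known, so this share is a description only. It was not above that of all genes when Ctrl 1 and TNF 3 were both left out. The median log2 change of the 27 factors was -0.011. The list of absorptive factors, which also holds genes of wider roles such as Cdx2 and Klf5, accounted for 7 of the calls among 10 tested. Of these calls 6 were lower, where 11.1% of all genes were lower, and the median log2 change of the list was -0.20. Cdx2, the homeobox gene of intestinal identity, had 73.9, 67.8 and 71.5 FPKM in TNF 1, 2 and 3, against 87.7, 85.1 and 88.5 FPKM in Ctrl 1, 2 and 3 (log2 change -0.29, SE 0.04, limma adjusted p = 0.00292). When Ctrl 1 and TNF 3 were both left out, Cdx2 narrowly did not pass (adjusted p = 0.0517). Klf5, which keeps crypt cells dividing (log2 change -0.23), Hnf4g, an enterocyte nuclear receptor (-0.40), and Gata6 (-0.23) passed more narrowly, with limma adjusted p of 0.017, 0.0323 and 0.0348. The Klf5 call was lost without TNF 2 or TNF 3 (adjusted p 0.0595 to 0.0629), the Hnf4g call without any sample but TNF 2 (0.064 to 0.0931) and the Gata6 call without any sample but Ctrl 2 (0.0533 to 0.106). Further calls were Hnf4a, lower at 119 ± 7.56 FPKM in TNF and 135 ± 4.02 FPKM in Ctrl (SD, n = 3 each; limma adjusted p = 0.0439), and Elf3, higher at 103 ± 5.23 FPKM in TNF and 89.7 ± 5.13 FPKM in Ctrl (limma adjusted p = 0.0446). The Hnf4a call was lost without Ctrl 1, Ctrl 3, TNF 1 or TNF 2 (adjusted p 0.106 to 0.136), and the Elf3 call without any sample but Ctrl 2 (0.074 to 0.133). With the replicate number as a block, Hnf4a (adjusted p = 0.069) and Elf3 (adjusted p = 0.105) did not pass either. Of the 10 absorptive factors, 5 were lower without Ctrl 2, 3 were lower without any other single sample, and 0 were lower or higher when Ctrl 1 and TNF 3 were both left out. In that setting the adjusted p of Klf5, Hnf4g, Gata6, Hnf4a and Elf3 lay between 0.0883 and 0.282. Over all 27 factors, 5 were lower without Ctrl 1, Ctrl 3, TNF 2 or TNF 3.

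The 17 secretory factors tested gave 3 higher, 2 lower and 12 that did not pass, with a median log2 change of 0.10. A share of 29.4% was called, near the 24.0% of all genes, so the number of calls says nothing particular about these factors. Foxa3, a goblet cell factor, rose to 23.8 ± 0.475 FPKM in TNF, against 18.6 ± 0.817 FPKM in Ctrl (SD, n = 3 each; limma adjusted p = 0.00141). Bhlha15, which equips cells for secretion, had 2.97, 2.56 and 3.32 FPKM in TNF 1, 2 and 3, against 1.95, 1.60 and 1.85 FPKM in Ctrl 1, 2 and 3 (log2 change 0.50, limma adjusted p = 0.00716), and narrowly did not pass when Ctrl 1 and TNF 3 were both left out (adjusted p = 0.0515). Creb3l4 had 14.9 ± 0.838 FPKM in TNF and 12.6 ± 0.99 FPKM in Ctrl (limma adjusted p = 0.043). That call was lost without Ctrl 2, Ctrl 3, TNF 2 or TNF 3 (adjusted p 0.0902 to 0.127) and without both TNF 3 and Ctrl 1 (adjusted p = 0.102). It was lost too with the replicate number as a block (adjusted p = 0.0937). Creb3l1, a factor anchored in the endoplasmic reticulum of secreting cells, fell to 22.2 ± 2.53 FPKM in TNF, against 35.4 ± 2.66 FPKM in Ctrl (log2 change -0.65, limma adjusted p = 0.00145), and Foxa2 had 6.88 ± 0.143 FPKM in TNF and 10.01 ± 0.349 FPKM in Ctrl (limma adjusted p = 0.000291). Without Ctrl 3, TNF 2 or TNF 3, or with the replicate number as a block, 2 of the 27 factors were higher. When Ctrl 1 and TNF 3 were both left out, 1 of the 27 was higher (Foxa3) and 2 were lower (Foxa2 and Creb3l1). Of all 12350 tested genes, 821 were higher and 596 lower in that setting, so the share called among the factors was not above that of all genes.

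Spdef, Neurog3 and Gfi1, factors known to act after Atoh1 and named here after their values were seen, did not pass, while other secretory factors did, as given above. Spdef, which drives goblet cell maturation, had 21.3, 22.5 and 22.6 FPKM in TNF 1, 2 and 3, against 21.5, 16.8 and 18.7 FPKM in Ctrl 1, 2 and 3 (log2 change 0.22, SE 0.08, limma adjusted p = 0.0929). Ctrl 1 lay among the TNF samples, and without it Spdef passed (log2 change 0.31, adjusted p = 0.0182). Neurog3, which starts the enteroendocrine path, had 5.22, 4.53 and 5.97 FPKM in TNF 1, 2 and 3, against 2.44, 4.77 and 4.12 FPKM in Ctrl 1, 2 and 3 (log2 change 0.41, SE 0.18, limma adjusted p = 0.15). Gfi1, which keeps secretory progenitors from turning endocrine, had 1.27 ± 0.183 FPKM in TNF and 1.06 ± 0.174 FPKM in Ctrl (limma adjusted p = 0.391).

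Marker genes of the mature cell types moved in both directions. Of 24 tested, 5 were higher, 10 were lower and 9 did not pass, so that 62.5% were called beside 24.0% of all genes. These markers too were chosen with earlier results of these data known, so the share is a description only. Spdef and Neurod1, which did not pass, are on the marker lists and were also counted among the secretory factors above. The 8 goblet markers gave 3 higher (Agr2, Spink4 and Tff3) and 1 lower (Fcgbp), and summed to 1426 to 1488 FPKM in TNF and 1408 to 1444 FPKM in Ctrl, overlapping. Calls for Tff3 were lost without Ctrl 1, TNF 1 or TNF 3 (adjusted p 0.0537 to 0.0589) and for Spink4 without TNF 3 (0.053), and without TNF 3 only 3 of the 24 were higher. With the replicate number as a block, Tff3 did not pass (adjusted p = 0.0653). The 4 deep crypt secretory markers gave 2 higher (Ang4, log2 change 2.80, and Mmp7, 1.39) and 1 lower (Reg4, -0.56). They summed to 911.7 to 1044 FPKM in TNF and 1101 to 1183 FPKM in Ctrl. Reg4 made up most of that sum, with 748 ± 59.9 FPKM in TNF and 1101 ± 38.3 FPKM in Ctrl (SD, n = 3 each). The lower sum in TNF is therefore that of Reg4 and goes against Ang4 and Mmp7. Of 5 enteroendocrine markers tested, Gcg, Chgb and Cck fell and none rose, and the Cck call ended when Ctrl 1 and TNF 3 were both left out (adjusted p = 0.0949), as did that of Tff3 (adjusted p = 0.166). Of 7 colonocyte markers, 5 fell (Cyp2c55, Slc26a2, Slc26a3, Car1 and Aqp8) and none rose, with sums of 1353 to 1418 FPKM in TNF and 2339 to 2748 FPKM in Ctrl. The 5 tuft markers all had means under 1 FPKM.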

How the data were processed

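RNA from 6 colon organoid samples (3 TNF, 3 Ctrl) was sequenced on libraries made with standard Illumina methods, per the labels' protocols. The tools named in the submitters' processing notes are cutadapt (version 1.9) and FastQC, and the build is GRCm38. Aligner, counter, strandedness and annotation release are not given in the sources used here. From these reads the authors deposited a single table of normalized values, whose unit had to be inferred. Values times exonic length (GENCODE M21) summed to 9.59e+08 to 9.64e+08 per library, near the 1000000000 of FPKM, so the deposited values were treated as FPKM, normalized by the authors for length and library.

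Read depth came from low values of genes with a single exon and transcript. Of these, 76.3% to 79.3% lay within 0.1 of a whole number of bases, where 20% would by chance; the step was fitted to the same values. These are not whole reads, so no count test was run.

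Genes averaging 1 FPKM or more were fitted on log2(FPKM + 1) with limma (version 3.58.1, R 4.3.3), group as the only term, mean-dependent prior variance, two-sided, with Benjamini-Hochberg adjustment over all tested genes. The fit was tested on simulated data. Exon overlaps came from GENCODE M21 and promoter windows from RefSeq. The alternatives were pseudocounts of 0.1 and 5 FPKM, no filter or a filter at 5 FPKM, quantile or median scaling, a single prior variance, the replicate number as a block, and left-out samples.

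The 10 genes, the lists and the rule for named genes (all 10, and of each list up to 5 called genes with the smallest p) were chosen with earlier results of these data known. Adam10, Lfng, Mfng, Rbpj, Hnf4a, Elf3, Spdef, Neurog3, Gfi1, Parp9, Lgr5, Smoc2, Ascl2, Lyz2 and Ptprc were named after their values were seen. 1 gene that the rule named is not reported here.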

Additional observations from a re-analysis of the deposited data

How the results depend on the processing

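The fall of Hes1 kept its direction and its call under all 15 alternatives (log2 change -0.48 to -0.32, adjusted p 0.00539 to 0.0348). The rise of Atoh1 kept its direction under all 15 (0.34 to 0.47) and lost its call under 1 of them, without both Ctrl 1 and TNF 3, where 0 members were higher. That setting leaves 4 samples. Without Ctrl 2, 2 members were higher. Leaving out 1 sample gave 1 to 2 members higher and 1 lower. Neither Dll1 nor Jag2 passed under any alternative that tested them, but both changed sign. Dll1 turned to -0.045 without Ctrl 2 and -0.030 without both Ctrl 1 and TNF 3, and lay between -0.045 and 0.18 with 1 sample left out. Jag2 turned to 0.030 without Ctrl 2 and 0.018 without TNF 2, and lay between -0.11 and 0.030 with 1 sample left out. A pseudocount of 5 FPKM shrinks the change of low genes by construction and 0.1 FPKM enlarges it, so that Olfm4 ranged from 0.75 to 3.63.

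Of the 54 other pathway genes, 7 were higher with no filter, which tests more of them, and 2 with a filter at 5 FPKM, which tests fewer; 2 were lower without both Ctrl 1 and TNF 3. Leaving out 1 sample gave 3 to 5 higher and 4 to 5 lower. Of the fate factors, 2 were higher and 5 lower with no filter, 2 higher with the replicate block, and 1 higher and 2 lower without both Ctrl 1 and TNF 3. Leaving out 1 sample gave 2 to 4 higher and 5 to 7 lower among them. Creb3l4, Hnf4a and Elf3 lost their calls with no filter, with a single prior variance and with the replicate block. Creb3l4 lost its call with quantile scaling too, and Elf3 with median scaling. Hnf4g, Gata6 and the goblet marker Spink4 lost theirs with no filter. Of the mature cell markers, leaving out 1 sample gave 3 to 5 higher and 10 to 12 lower. Over all genes, 821 were higher and 596 lower without both Ctrl 1 and TNF 3, and leaving out 1 sample gave 1149 to 1430 higher and 913 (without Ctrl 1) to 1177 lower. Beyond the smaller number of samples or genes, the cause of these shifts was not tested.

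The sources used here do not say whether the replicate numbers pair the samples. Deviations of same-numbered samples correlated at -0.0043, -0.10 and 0.0053. No shared deviation was seen over the tested genes, but so few values cannot exclude pairing. With the replicate block 1 member was higher (Atoh1) and 1 lower (Hes1), and 1256 genes were higher and 1004 lower. That Notch2, Dll4 and Hes6 did not pass does not show that they were unchanged, and Notch3, with 136 to 255 reads, was tested only with no filter.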
